A study of Mus musculus with 8 samples.

Results

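The question addressed here was which transcripts of mouse liver depend on ATF4 while the kinase PERK is active, and which are higher without it. The members are 4 of the 8 arrays of the series: 2 arrays of AP20187-treated Atf4-/- liver and 2 arrays of AP20187-treated Atf4+/+ liver, chosen by their source names. The other 4 are untreated livers, 2 of each genotype. Affymetrix MG-U74Av2 arrays were used for the total RNA of whole liver. They carry short oligonucleotide probe sets designed near the 3′ ends of transcripts. All 8 arrays, the untreated ones included, came from mice with the transgene Ttr::Fv2E-Perk, a low-expressing line in a mixed FvB/n and Swiss Webster background. The transthyretin promoter places the transgene in the liver, where hepatocytes are its main site of activity. Its product joins the kinase part of PERK to a dimerization module, and the drug AP20187 brings these modules together and so turns the kinase on without protein misfolding in the endoplasmic reticulum (ER). The untreated arrays, which the series title calls mock-injected, were left out of the main fit. For 2 of them the Atf4 level stood against the labelled genotype, and for 1 the source name and the description give different genotypes. They are used below mainly as description. They also enter an alternative fit with all 8 arrays, the test of whether the genotype difference departs from that in untreated liver, and the choice of 1 probe set per gene. The sources used here do not give dose, time after injection, age or sex. They also do not say that each array holds RNA of its own animal, and without that a p-value may measure only technical spread between samples.

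PERK phosphorylates the translation factor eIF2, which lowers protein synthesis in general and raises translation of a few messages with upstream open reading frames, Atf4 first among them. ATF4 is a basic leucine zipper protein that pairs with members of the C/EBP family and binds composite C/EBP-ATF elements in genes for amino acid synthesis and transport, aminoacyl-tRNA synthetases and stress regulators such as Ddit3 (CHOP), Atf3 and Trib3. The whole program is called the integrated stress response, and in the liver it joins amino acid shortage, ER stress and other strains to metabolism.

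The values deposited by the authors were linear ratios. For 85.8% of the probe sets the ratio was to the probe set's own median over the 8 arrays, so that a ratio of 1 is the middle of the series and ratios of different genes do not rank their abundance. Differences were taken on the log2(ratio + 0.1) scale as treated Atf4-/- minus treated Atf4+/+, and a negative value means less transcript without Atf4. Errors beside log2 differences are standard errors from limma. Across 12422 probe sets the log2 ratios of the treated Atf4+/+ pair correlated at 0.312 (Pearson's r) and those of the treated Atf4-/- pair at 0.365. Treated Atf4+/+ replicate 1 correlated with the Atf4-/- pair at 0.38 and 0.354. Treated Atf4+/+ replicate 2 stood apart. It correlated with the untreated arrays at 0.0974 to 0.121, 4.37% of its ratios were above 2 against 1.77% to 3.17% on the other 7 arrays, and its 5′ over 3′ signal of the Actb control was -0.64 on the log2 scale, with -0.19 to 0.14 on the others. The 5′ signal of a control transcript reads low where RNA is shortened. For Gapdh the same array stood at -0.06 with -0.05 to 0.13 on the others, for Pcx at 0.10 with -0.21 to 0.23, and for Tfrc at -1.53, where treated Atf4-/- replicate 2 was lower still at -2.29.

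The targeted gene was read first. Atf4 (chromosome 15, 80255184 to 80257545, GRCm38.p6) stood at 4.17 and 5.75 in Atf4+/+ livers and at 0.25 and 0.33 in Atf4-/- livers under AP20187, and both Atf4-/- arrays lay far below both Atf4+/+ arrays. The means were 4.96 ± 1.12 and 0.29 ± 0.0566 (SD, n = 2 each), and the log2 difference was -3.69 ± 0.29 (SE, limma unadjusted p = 0.000122, adjusted p = 0.477). The sources used here do not say which part of Atf4 the deletion removes. Eif2ak3, the gene of PERK itself, had ratios of 0.99 and 1.37 against 0.98 and 1.01, which overlapped between the genotypes (-0.21 ± 0.26, SE, limma unadjusted p = 0.47). Of 10 hepatocyte markers 8 were measured (Alb, Ttr, Apoa1, Tat, Cps1, Fgb, Hnf4a and Cyp2e1), with ratios of 0.47 to 1.52 on the 4 treated arrays. A ratio to the median of the series cannot show by itself that a marker is abundant.

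No probe set passed the test. In limma over the 4 treated arrays 0 of 12422 probe sets had an adjusted p under 0.05 in either direction, and the smallest adjusted p was 0.477. The fit with all 8 arrays also called 0, with a smallest adjusted p of 0.177. At an unadjusted p under 0.05 there were 379 probe sets with lower values (3.05%) and 339 with higher values (2.73%) in Atf4-/- livers, 718 in all (5.78%), where 621.1 would be expected by chance. With 1 probe set for each of 8251 genes, 225 genes (2.73%) had a lower and 198 (2.4%) a higher value at that p. Both Atf4-/- arrays lay below both Atf4+/+ arrays for 1304 genes (15.8%) and above them for 1610 (19.5%). A further demand of a log2 difference of at least 1 left 202 genes below (2.45%) and 168 above (2.04%). These shares are the background against which the gene groups below are read, and every gene described has an adjusted p of 0.477 or more.

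The first 4 of the 8251 genes by p-value were Cars, Atf4, Psat1 and Mthfd2, all with lower values in Atf4-/- livers. By size of the difference the lowest were Nupr1 (rank 1), Psat1 (rank 2), Atf4 (rank 3) and Cars (rank 4).

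**Figure D1:**
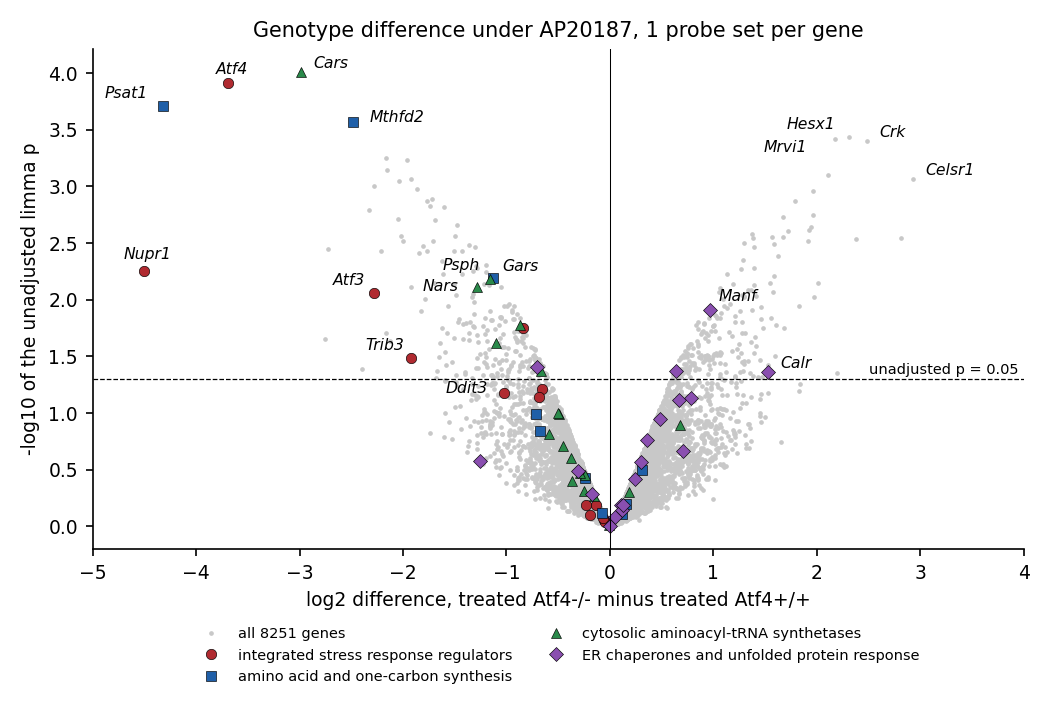
Log2 difference between treated Atf4-/- and treated Atf4+/+ livers (horizontal axis) against -log10 of the unadjusted limma p (vertical axis), 1 point per gene, with 4 gene lists in colour. Cars, Atf4, Psat1 and Mthfd2 lie at the upper left, at -2.99, -3.69, -4.32 and -2.49, and none of the 8251 genes passed the adjusted threshold.

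Regulators of the integrated stress response had lower values in Atf4-/- livers as a group. Of 18 listed regulators 14 were measured, and all 14 had a log2 difference below 0, against 44.9% of all genes. In 8 of them (57.1%) both Atf4-/- arrays lay below both Atf4+/+ arrays, against 15.8% of all genes, and in 5 (35.7%, against 2.73%) the unadjusted p was under 0.05: Atf4, Nupr1, Atf3, Trib3 and Eif4ebp1. The list's median was -0.67, with 0.05 over all genes, and lay between -0.81 and -0.54 when each treated array was left out in turn. The count includes Atf4 itself, and the list holds genes known as ATF4 targets.

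The C/EBP-ATF element was searched in the promoter sequences as TGATGNAA on both strands, over 250 bases before and 50 after the gene start (RefSeq, GRCm38.p6). It was present in 3.97% of 32851 promoters of all genes, and in 197 (3%) of the 6576 genes on the array that had a promoter entry. Of 12 measured regulators with a promoter entry 4 held it (Atf3, Nupr1, Trib3 and Vldlr), of 12 synthetases 5 (Aars, Gars, Iars, Tars and Yars), of 10 enzymes of amino acid and one-carbon synthesis 2 (Asns and Got1), and of 7 amino acid transporters 2 (Slc1a4 and Slc7a11). A match is a description of letters and not a shown binding site, and Aars, Tars, Got1, Slc7a11 and Vldlr hold one while their ratios overlapped between the genotypes. For Vldlr this holds for the probe set used, and its other probe set did not overlap (-0.81). The sequences below are 6 examples among the genes whose treated ratios did not overlap, the regulators and synthetases with the larger differences and Asns. Slc1a4 and Yars also hold the element without overlap and are not printed. Each is shown from 250 bases before to 30 bases from the start, 5′ to 3′ on the gene's strand, with the match in capitals. Where the element reads on the opposite strand its letters are reversed and complemented (TTNCATCA).
Nupr1: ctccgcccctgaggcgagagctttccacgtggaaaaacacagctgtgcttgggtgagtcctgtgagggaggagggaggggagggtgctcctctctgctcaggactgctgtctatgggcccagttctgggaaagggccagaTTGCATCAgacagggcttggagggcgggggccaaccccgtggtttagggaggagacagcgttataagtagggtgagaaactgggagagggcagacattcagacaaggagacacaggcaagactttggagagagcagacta
Atf3: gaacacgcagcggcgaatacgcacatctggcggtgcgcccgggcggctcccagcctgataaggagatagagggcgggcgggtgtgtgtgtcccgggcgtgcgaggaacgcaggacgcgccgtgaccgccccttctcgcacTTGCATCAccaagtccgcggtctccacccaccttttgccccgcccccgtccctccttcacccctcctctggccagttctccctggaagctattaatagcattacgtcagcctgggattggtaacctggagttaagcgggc
Trib3: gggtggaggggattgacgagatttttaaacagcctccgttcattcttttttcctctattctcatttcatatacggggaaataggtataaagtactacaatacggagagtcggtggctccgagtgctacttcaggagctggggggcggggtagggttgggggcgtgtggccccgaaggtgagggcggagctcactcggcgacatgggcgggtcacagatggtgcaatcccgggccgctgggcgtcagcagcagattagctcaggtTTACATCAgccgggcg
Asns: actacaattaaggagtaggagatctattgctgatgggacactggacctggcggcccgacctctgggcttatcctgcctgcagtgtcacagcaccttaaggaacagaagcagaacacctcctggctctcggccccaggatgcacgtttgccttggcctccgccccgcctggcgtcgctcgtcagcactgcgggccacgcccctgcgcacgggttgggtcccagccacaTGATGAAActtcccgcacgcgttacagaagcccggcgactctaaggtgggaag
Gars: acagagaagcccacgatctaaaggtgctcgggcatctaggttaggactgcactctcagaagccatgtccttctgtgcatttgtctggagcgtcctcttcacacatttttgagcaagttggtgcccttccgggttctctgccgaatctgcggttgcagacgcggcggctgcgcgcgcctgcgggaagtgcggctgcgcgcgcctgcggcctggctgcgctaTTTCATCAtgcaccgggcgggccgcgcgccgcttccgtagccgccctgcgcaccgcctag
Iars: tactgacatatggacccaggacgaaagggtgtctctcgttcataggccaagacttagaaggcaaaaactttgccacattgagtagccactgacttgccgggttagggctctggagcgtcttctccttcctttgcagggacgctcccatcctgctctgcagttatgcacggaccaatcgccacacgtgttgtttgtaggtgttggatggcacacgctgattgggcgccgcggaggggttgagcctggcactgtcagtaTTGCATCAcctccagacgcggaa
These windows are chr7:126625441-126625720 (Nupr1), chr1:191183304-191183583 (Atf3), chr2:152344031-152344310 (Trib3) and chr6:7693180-7693459 (Asns), all on the minus strand, and chr6:55037751-55038030 (Gars) and chr13:49681880-49682159 (Iars) on the plus strand. The match TTGCATCA begins 110 bases before the start in both Nupr1 and Atf3. In Asns TGATGAAA begins 23 bases before the start, and in Gars TTTCATCA begins 30 bases before it. In Trib3 (TTACATCA, bases 15 to 22) and Iars (TTGCATCA, bases 8 to 15) the match lies just inside the transcript. Among the 12 genes named as lowest by p-value, 10 had a promoter entry and 0 held the element, Atf4, Psat1 and Mthfd2 among them. Of the 202 genes lower by at least 1 without overlap, 169 had an entry and 9 (5.33%) held the element. Of the 168 genes higher by at least 1, 129 had an entry and 3 (2.33%) held it, against 3% of the genes on the array.

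Nupr1, a small stress-induced chromatin protein, had the largest difference of all genes. Its ratios were 18.55 and 38.40 in treated Atf4+/+ livers and 2.54 and 0.43 in treated Atf4-/- livers. The Atf4-/- livers were low and did not overlap the others, and they differed from each other by more than the Atf4+/+ pair did in proportion. The log2 difference was -4.50 ± 0.89 (SE, limma unadjusted p = 0.00558), and it ranged from -5.66 to -3.34 with single arrays left out.

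Atf3, a repressor of the ATF family induced downstream of ATF4 and CHOP, had ratios of 7.37 and 16.59 in treated Atf4+/+ livers and 1.72 and 2.82 in treated Atf4-/- livers. The groups did not overlap, and the Atf4-/- livers still stood above the untreated arrays, which lay between 0.14 and 0.28. The difference was -2.28 ± 0.51 (SE, limma unadjusted p = 0.00877). Another Atf3 probe set gave -2.24, and the remaining one 0.11 with ratios of 0.32 to 0.53 on every array. Trib3, a pseudokinase that restrains AKT and ATF4, had 3.78 and 12.75 in treated Atf4+/+ livers against 1.80 and 1.73 in treated Atf4-/- livers. The Atf4+/+ pair was the more scattered one, and the difference of -1.92 ± 0.62 (SE, limma unadjusted p = 0.0329) became -1.06 without Atf4+/+ replicate 2. Ddit3, which encodes the transcription factor CHOP, had 3.12 and 5.95 against 1.70 and 2.52. These values did not overlap either, but the difference of -1.02 ± 0.42 had a limma unadjusted p of 0.0662, and it was -0.57 without Atf4+/+ replicate 2. All 4 Atf4-/- ratios of Trib3 and Ddit3 stood above the untreated range, which ended at 0.27 for Trib3 and 0.30 for Ddit3.

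Eif4ebp1, an inhibitor of cap-dependent translation, had 1.56 and 1.46 in treated Atf4+/+ and 0.84 and 0.76 in treated Atf4-/- livers (-0.84 ± 0.23, SE, limma unadjusted p = 0.0177). Ppp1r15a, the GADD34 subunit that directs the phosphatase against eIF2, had 1.59 and 2.30 against 1.26 and 1.05. Its groups did not overlap, with a difference of -0.69 ± 0.29 and a limma unadjusted p of 0.0717 (-0.43 without Atf4+/+ replicate 2). Cebpg, a C/EBP partner of ATF4, had 1.80 and 2.23 against 1.10 and 1.38, also without overlap (-0.66 ± 0.26, SE, limma unadjusted p = 0.0608).

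The other 6 regulators overlapped between the genotypes. For Atf5, a related factor that is likewise controlled by translation, the ratios were 2.27 and 1.72 in Atf4+/+ and 2.35 and 1.53 in Atf4-/- livers, all above the untreated range of 0.11 to 0.47, with a difference of -0.06 ± 0.32 (SE). Cebpb had 1.05 and 2.33 against 1.47 and 1.56 (-0.05 ± 0.43), and Ddit4, an inhibitor of mTORC1, had 5.49 and 1.35 against 2.11 and 2.71 (-0.19 ± 0.70). For Cebpb and Ddit4 the Atf4-/- ratios lay between the Atf4+/+ ratios, and for Atf5 they enclosed them. The sign of each difference turned under at least 1 alternative setting. Vldlr (-0.06), Stc2 (-0.13) and Ndrg1 (-0.23, its other probe set 0.18) completed the list, likewise with overlap and turning signs. The other probe set of Vldlr did not overlap, with 1.27 and 1.59 against 0.63 and 0.93 (-0.81 ± 0.30, SE, limma unadjusted p = 0.0467).

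Set against the 4 untreated arrays, the regulators split. In 11 of 14 both treated Atf4+/+ arrays stood above every untreated array, against 902 of 8251 genes (10.9%), and in 8 of these 11 both treated Atf4-/- arrays stood above them too (392 of those 902 over all genes): Atf3, Atf5, Ddit3, Cebpb, Cebpg, Trib3, Ppp1r15a and Ddit4. For Atf4, Nupr1 and Eif4ebp1 they did not. The mean log2 value over the list was -0.82 to -0.48 on the untreated arrays, 1.41 and 1.78 on the treated Atf4+/+ arrays, and 0.48 and 0.37 on the treated Atf4-/- arrays.

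**Figure D2:**
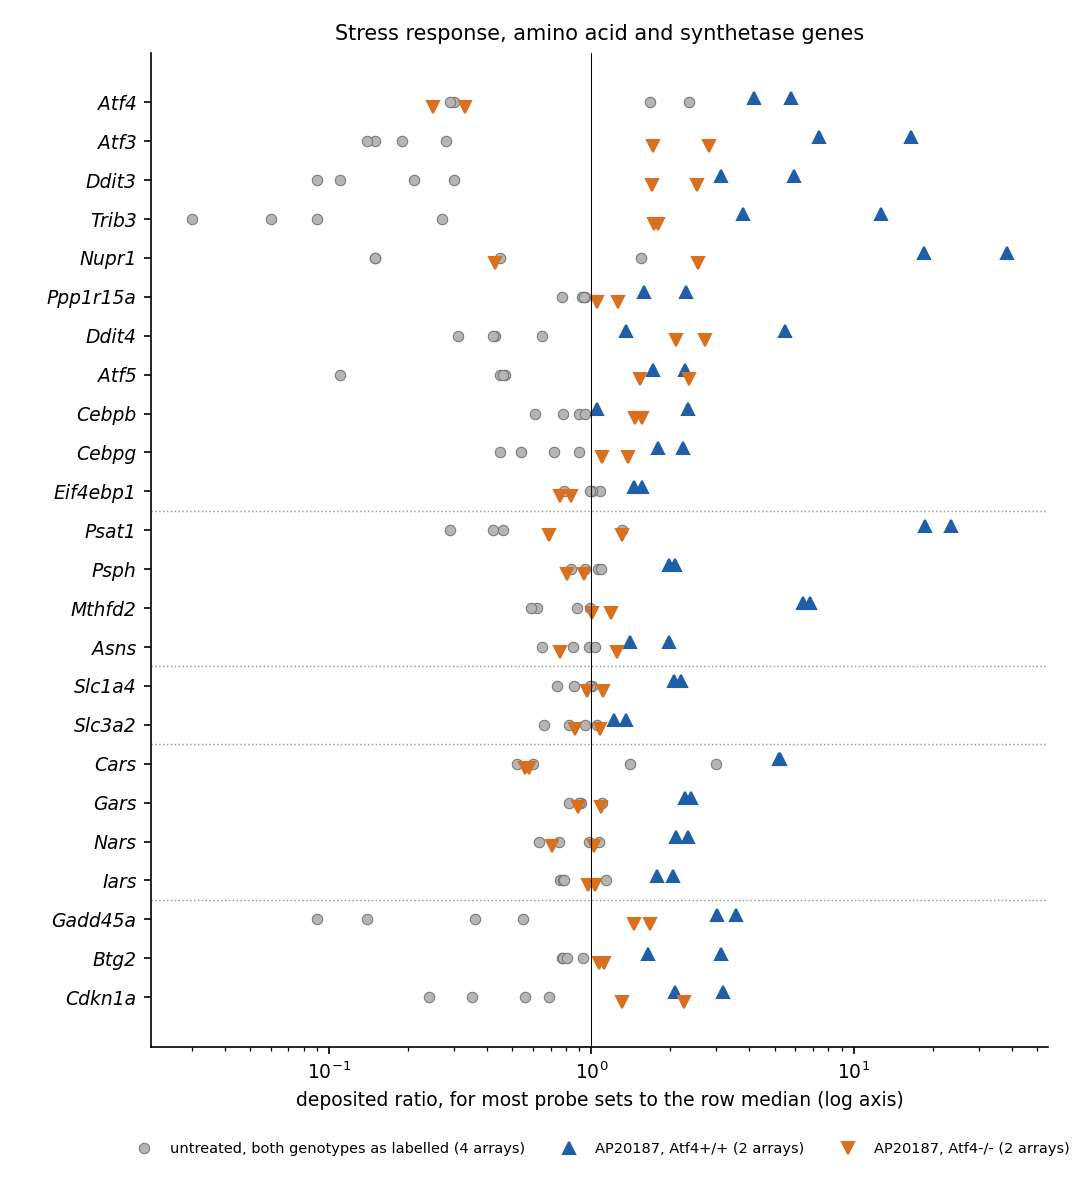
Deposited ratio (log axis) of stress regulators, amino acid enzymes, transporters, synthetases and growth arrest genes on each array, with untreated arrays in grey, treated Atf4+/+ in blue and treated Atf4-/- in orange. For Psat1 the treated Atf4-/- ratios of 0.69 and 1.31 reach the untreated ones, whereas for Atf3 and Trib3 they lie between the untreated and the treated Atf4+/+ ratios.

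Enzymes of amino acid and one-carbon synthesis held the second largest difference of all genes, that of Psat1. Of 17 listed enzymes 10 were measured. In 6 (60%, against 15.8% of all genes) both Atf4-/- arrays lay below both Atf4+/+ arrays, in 3 (30%, against 2.73%) the unadjusted p was under 0.05, and in none were both above. The median was -0.46, and -0.27 without treated Atf4+/+ replicate 2.

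Psat1, the transaminase of serine synthesis, had ratios of 18.70 and 23.45 in treated Atf4+/+ livers and 0.69 and 1.31 in treated Atf4-/- livers. The Atf4-/- ratios fell inside the untreated range of 0.29 to 1.31, while the Atf4+/+ ratios were far above it. The mean was 21.1 times higher in Atf4+/+ (21.1 ± 3.36 against 1.0 ± 0.438, SD, n = 2 each), with a log2 difference of -4.32 ± 0.37 (SE, limma unadjusted p = 0.000195). Psph, the phosphatase of the same pathway, had 1.98 and 2.08 against 0.81 and 0.94. Here too the Atf4-/- pair was low and did not overlap (-1.13 ± 0.23, SE, limma unadjusted p = 0.00641). Phgdh, the enzyme that opens the pathway, had 0.80 and 1.20 against 0.97 and 1.26, which overlapped (0.16 ± 0.31, SE).

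Mthfd2, the mitochondrial folate dehydrogenase that makes one-carbon units from serine, had 6.79 and 6.43 in treated Atf4+/+ and 1.01 and 1.19 in treated Atf4-/- livers (-2.49 ± 0.23, SE, limma unadjusted p = 0.000273). Its other probe set stood against this, with 1.67 and 0.86 against 1.88 and 2.92 (0.91 ± 0.42, SE). That probe set has a median of 0.775 over the 8 arrays, below the 0.99 of most, and was not the one used for the gene. Asns, which makes asparagine, had 1.41 and 1.97 against 1.25 and 0.76. The groups were close but did not overlap (-0.71 ± 0.35, SE, limma unadjusted p = 0.103, -0.39 without Atf4-/- replicate 2), and its other probe set had 1.43 and 2.28 against 0.39 and 0.41 (-1.93 ± 0.31, SE, limma unadjusted p = 0.00245). Shmt1, Shmt2, Glul and Got1 lay between -0.24 and 0.31, with another Shmt1 probe set at 1.37.

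Cytosolic aminoacyl-tRNA synthetases, which charge tRNAs with their amino acids, had lower values in Atf4-/- livers across most of the family. Of 19 measured, 17 had a log2 difference below 0, in 13 (68.4%, against 15.8% of all genes) both Atf4-/- arrays lay below both Atf4+/+ arrays, and in 6 (31.6%, against 2.73%) the unadjusted p was under 0.05. Those 6 were Cars, Gars, Nars, Iars, Lars and Mars1. The median was -0.45, and -0.22 without treated Atf4+/+ replicate 2.

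Cars, the cysteinyl-tRNA synthetase gene, had 5.21 and 5.23 in treated Atf4+/+ livers and 0.56 and 0.58 in treated Atf4-/- livers. Both pairs were tight and far apart, and the difference of -2.99 ± 0.22 (SE, limma unadjusted p = 9.77e-05) had the smallest p of all genes. On the untreated arrays Cars stood at 3.0 and 0.52 where the labels give Atf4+/+ and at 0.60 and 1.40 where they give Atf4-/-. Atf4 stood at 2.36, 0.30, 0.29 and 1.67 on the same arrays.

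Gars, for glycine, had 2.27 and 2.39 in treated Atf4+/+ against 1.09 and 0.89 in treated Atf4-/- livers (-1.16 ± 0.24, SE, limma unadjusted p = 0.00658). Nars, for asparagine, had 2.11 and 2.34 against 0.71 and 1.02 (-1.29 ± 0.28, SE, limma unadjusted p = 0.00767). Iars, for isoleucine, had 1.78 and 2.05 against 0.97 and 1.03 (-0.87 ± 0.23, SE, limma unadjusted p = 0.0168). None of these 3 overlapped, and the Atf4-/- ratios were near 1 or lower. Lars (1.69 and 2.68 against 1.06 and 0.83, -1.10) and Mars1 (1.53 and 1.77 against 0.94 and 1.06, -0.67) were of the same kind. At the other end Tars (-0.01), Qars (0.18), Hars (-0.37), Wars (-0.25) and Aars (-0.38) overlapped between the genotypes, and Kars stood higher in Atf4-/- livers with 1.04 and 1.16 against 0.46 and 0.90 (0.68 ± 0.36, SE, 0.26 without Atf4+/+ replicate 1). In 13 of the 19 both treated Atf4+/+ arrays stood above every untreated array (68.4%, against 10.9% of all genes), and in 5 of these 13 the treated Atf4-/- arrays did too, against 392 of 902 over all genes.

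Amino acid transporters were mixed. Of 11 measured, 5 had a difference below 0, in 4 (36.4%, against 15.8%) both Atf4-/- arrays lay below both Atf4+/+ arrays, and the median was 0.08. That median had no steady sign: it was -0.22 and 0.01 without Atf4+/+ replicates 1 and 2, and -0.26 and -0.16 without Atf4-/- replicates 1 and 2. A lower value at an unadjusted p under 0.05 was seen for 1 transporter (9.09%, against 2.73% of all genes). This was Slc1a4, a carrier of alanine, serine and cysteine, with 2.07 and 2.20 against 1.11 and 0.96 (-0.98 ± 0.23, SE, limma unadjusted p = 0.011). The glycine carrier Slc6a9 (1.15 and 1.30 against 0.86 and 0.75) and both chains of the large neutral amino acid carrier, Slc7a5 (1.25 and 1.85 against 0.95 and 1.06) and Slc3a2 (1.36 and 1.22 against 1.08 and 0.87), did not overlap but had unadjusted p-values of 0.0734 to 0.194, and Slc7a5 moved from -0.56 to -0.29 without Atf4+/+ replicate 2. Slc7a11, the cystine carrier, had 0.43 and 2.15 against 0.88 and 1.56, so that its Atf4+/+ livers enclosed its Atf4-/- livers.

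Translation initiation and elongation factors showed small differences. Of 25 measured, 18 had a value below 0, against 44.9% of all genes. In 8 (32%, against 15.8%) both Atf4-/- arrays lay below both Atf4+/+ arrays, but 0 had an unadjusted p under 0.05. The median was -0.09 (-0.22 without Atf4+/+ replicate 1). Eif3c, a subunit of the eIF3 complex, had 1.51 and 1.86 against 1.12 and 1.03 (-0.60 ± 0.24, SE, limma unadjusted p = 0.0646). Of 9 genes for eIF2 kinases and eIF2 dephosphorylation 1 (11.1%, against 2.73% of all genes) had a lower value at an unadjusted p under 0.05. This was Ppp1r15b, the constitutive partner of the eIF2 phosphatase, with 1.34 and 1.39 against 0.72 and 0.68 (-0.87 ± 0.22, SE, limma unadjusted p = 0.0144).

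Growth arrest genes had lower values in part. Of 12 measured, 10 had a difference below 0, 3 (25%, against 15.8%) had both Atf4-/- arrays below both Atf4+/+ arrays, and the median was -0.22 (-0.46 without Atf4-/- replicate 2). Gadd45a, a stress sensor of DNA damage and cell-cycle arrest, had 3.56 and 3.01 in treated Atf4+/+ and 1.68 and 1.45 in treated Atf4-/- livers, both pairs above the untreated range of 0.09 to 0.55 (-1.02 ± 0.24, SE, limma unadjusted p = 0.0114). Btg2, an antiproliferative gene, had 1.65 and 3.11 against 1.12 and 1.07 (-0.99 ± 0.37, SE, limma unadjusted p = 0.0506), and -0.55 without Atf4+/+ replicate 2. Cdkn1a, the p21 cell-cycle inhibitor, overlapped, with 2.09 and 3.19 against 1.31 and 2.25, and all 4 treated ratios were above the untreated range of 0.24 to 0.69.

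Interferon-induced genes also leaned lower in Atf4-/- livers. Of 22 measured, 17 had a difference below 0, 9 (40.9%, against 15.8%) had both Atf4-/- arrays below both Atf4+/+ arrays, 4 (18.2%, against 2.73%) had an unadjusted p under 0.05, and the median was -0.29 (-0.15 without Atf4-/- replicate 2). The chemokine genes Cxcl9 (1.48 and 2.48 against 0.50 and 1.03, -1.29 ± 0.45) and Cxcl10 (1.63 and 3.38 against 1.10 and 0.93, -1.14 ± 0.41) had the larger differences, which became -0.84 for Cxcl9 without Atf4-/- replicate 1 and -0.64 for Cxcl10 without Atf4+/+ replicate 2. Without the latter array 0 of the 22 were lower by at least 1, in place of 2. The GTPase genes Gbp3 (1.23 and 1.21 against 0.69 and 0.71, -0.72 ± 0.22) and Igtp (1.21 and 1.73 against 0.89 and 0.72, -0.78 ± 0.29) completed the 4. Ifit1, Ifit3 and Isg15, textbook targets of type I interferon, lay at 0.37, 0.03 and 0.30 and overlapped between the genotypes. Of 12 lymphocyte markers 2 (16.7%) had both Atf4-/- arrays below, a share near the 15.8% of all genes. Gzma was among them (1.04 and 1.51 against 0.67 and 0.51, -0.98). The mean log2 value of the 12 markers was -0.06 and 0.08 on the Atf4+/+ arrays and -0.15 and -0.12 on the Atf4-/- arrays. The part of lymphocytes in the result was not tested, and in whole liver RNA fewer cells of a type and less RNA per cell cannot be told apart.

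ER chaperones, the targets of the ATF6 and XBP1 branches of the unfolded protein response, leaned the other way. Of 19 measured, 5 had a difference below 0, 10 (52.6%, against 19.5% of all genes) had both Atf4-/- arrays above both Atf4+/+ arrays, 3 (15.8%, against 2.4%) had a higher value at an unadjusted p under 0.05, and the median was 0.24 (0.19 to 0.31 with single arrays left out). Manf, a secreted ER stress factor, had 0.91 and 0.76 in treated Atf4+/+ and 1.78 and 1.67 in treated Atf4-/- livers (0.97 ± 0.24, SE, limma unadjusted p = 0.0122). Calr, the chaperone calreticulin, had 0.89 and 0.29 against 2.10 and 1.36 (1.53 ± 0.54, SE, limma unadjusted p = 0.0435), and 0.86 without Atf4+/+ replicate 2. Pdia6, a disulfide isomerase, had 0.68 and 0.76 against 1.19 and 1.16 (0.64 ± 0.23), and its other probe sets gave 0.72 and 0.81. For these 3 genes the groups were apart, but the treated Atf4-/- ratios of Pdia6 lay inside the untreated range, which ran from 0.63 to 1.95, and for Manf and Calr 1 of the 2 lay above the highest untreated ratio, which was 1.72 for Manf and 1.93 for Calr.

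The best known gene of the class showed no such gap. Hspa5, the chaperone BiP, had 1.10 and 1.13 against 1.22 and 1.10 (0.05 ± 0.23, SE), and Atf6 (0.00), Xbp1 (-0.18) and Sel1l (0.13) overlapped as well. Ero1a, an oxidase that feeds disulfide formation and is a target of CHOP, stood opposite to its list, with 1.44 and 1.79 against 0.92 and 0.97 (-0.71 ± 0.24, SE, limma unadjusted p = 0.0391, its other probe set -0.53). The ER stress element, CCAAT and CCACG with 9 bases between them, was searched on both strands. It was found in 0.119% of all promoters and in 12 (0.182%) of the 6576 genes on the array with an entry. Of 16 chaperone genes with an entry 6 held it: Calr, Canx, Creld2, Hsp90b1, Hspa5 and Pdia6. Of cytosolic and mitochondrial heat shock genes 12 were measured and 6 (50%, against 19.5%) had both Atf4-/- arrays above, with a median of 0.18. The mitochondrial chaperone gene Hspa9 stood opposite to that, with 1.52 and 1.78 against 1.07 and 1.03 (-0.60 ± 0.23).

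Lists of hepatocyte metabolism differed from each other, and the higher medians of several rested on treated Atf4+/+ replicate 2. Fatty acid synthesis had 8 of 12 genes below 0, 2 (16.7%, against 15.8%) with both Atf4-/- arrays below, 0 with both above, and a median of -0.17 that was 0.15 without Atf4+/+ replicate 1 and -0.49 without replicate 2. Glucose metabolism had 6 of 13 below 0, 2 (15.4%) with both below and 3 (23.1%, against 19.5%) with both above, and the median of all genes, 0.05. Bile acid synthesis and transport had 11 measured genes, of which 5 (45.5%, against 19.5%) had both Atf4-/- arrays above both Atf4+/+ arrays and 4 (36.4%, against 2.4%) a higher value at an unadjusted p under 0.05. Cyp8b1, the sterol 12-alpha-hydroxylase that sets the share of cholic acid, had 0.27 and 0.29 in treated Atf4+/+ and 0.47 and 1.0 in treated Atf4-/- livers, with untreated arrays at 1.0 to 1.64 (1.06 ± 0.39, and 0.59 without Atf4-/- replicate 2). Nr0b2, the repressor SHP of bile acid synthesis, had 0.36 and 0.36 against 1.92 and 0.66 (1.43 ± 0.53, and 0.72 without Atf4-/- replicate 1). Hsd3b7 (0.70 and 0.56 against 1.27 and 1.06, 0.79 ± 0.25) and Cyp7b1 (0.86 and 0.64 against 1.23 and 1.55, 0.81 ± 0.28) are further enzymes of the pathway. In these 4 genes both Atf4+/+ arrays stood below every untreated array. Cyp7a1, the rate-limiting enzyme, had 1.03 and 0.41 against 0.18 and 1.17, with no order between the genotypes. The list's median was 0.36, and 0.12 without Atf4+/+ replicate 2.

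Cytochromes P450 of drug metabolism went both ways. Of 19 measured, 4 (21.1%, against 2.4%) had a higher and 1 (5.26%, against 2.73%) a lower value at an unadjusted p under 0.05. Cyp1a1, the main target of the aryl hydrocarbon receptor, had 0.71 and 0.79 in treated Atf4+/+ and 4.82 and 2.27 in treated Atf4-/- livers, where the untreated arrays lay between 0.88 and 1.10 (2.01 ± 0.42, SE, limma unadjusted p = 0.0071). Its other probe set overlapped, at 0.28 ± 0.90. Cyp3a13 had 0.81 and 0.65 against 1.77 and 2.01 (1.27 ± 0.25, SE, limma unadjusted p = 0.00536), and Cyp3a16 0.70 and 0.99 against 1.47 and 2.23 (1.03 ± 0.33). The fourth was Cyp17a1, a steroid hydroxylase (0.92 ± 0.30). Cyp2b13 stood the other way, with 1.68 and 1.53 against 0.37 and 0.68 (-1.49 ± 0.33, SE, limma unadjusted p = 0.00901), beside Cyp2b10, a target of the receptor CAR, with 1.52 and 3.37 against 0.51 and 1.19 (-1.42 ± 0.57, and -0.87 without Atf4+/+ replicate 2). Cyp3a11, the major CYP3A gene of adult liver, overlapped at 0.90 to 1.01. CYP3A and CYP2B genes are families of near-identical members whose transcripts a probe set may share.

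Among apolipoproteins and plasma carriers 11 of 15 (73.3%, against 19.5%) had both Atf4-/- arrays above both Atf4+/+ arrays. The gaps were small, with a median of 0.21 (0.14 without Atf4+/+ replicate 2, and without Atf4-/- replicate 2). A higher value at an unadjusted p under 0.05 was seen for 1 gene (6.67%, against 2.4%), Apom. Apom had 0.61 and 0.36 against 0.99 and 1.01 (0.94 ± 0.31), while its other probe set gave -1.08. All 8 hepatocyte markers had a difference above 0 (against 55.1% of all genes), with a median of 0.20. In 6 of them (75%, against 19.5%) both Atf4-/- arrays lay above both Atf4+/+ arrays. Alb had 0.88 and 0.98 against 1.01 and 1.06, and Ttr, whose promoter drives the transgene, had 0.83 and 0.47 against 0.98 and 0.93 (0.53 ± 0.33, and 0.18 without Atf4+/+ replicate 2). Of 21 urea cycle and amino acid breakdown genes 9 (42.9%, against 19.5% of all genes) had both Atf4-/- arrays above, with a median of 0.27. The same held for 8 of 31 respiratory chain subunits (25.8%, median 0.26) and 4 of 16 sterol synthesis genes (25%, 0.31). It also held for 8 of 20 coagulation and complement genes (40%, 0.26). No gene of these lists had a higher value at an unadjusted p under 0.05. Without treated Atf4+/+ replicate 2, the array with the low 5′ Actb signal, these medians became 0.10, -0.02, -0.06 and 0.01, and that of the P450 list 0.00 in place of 0.29. The part of RNA quality in them was not tested.

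**Figure D3:**
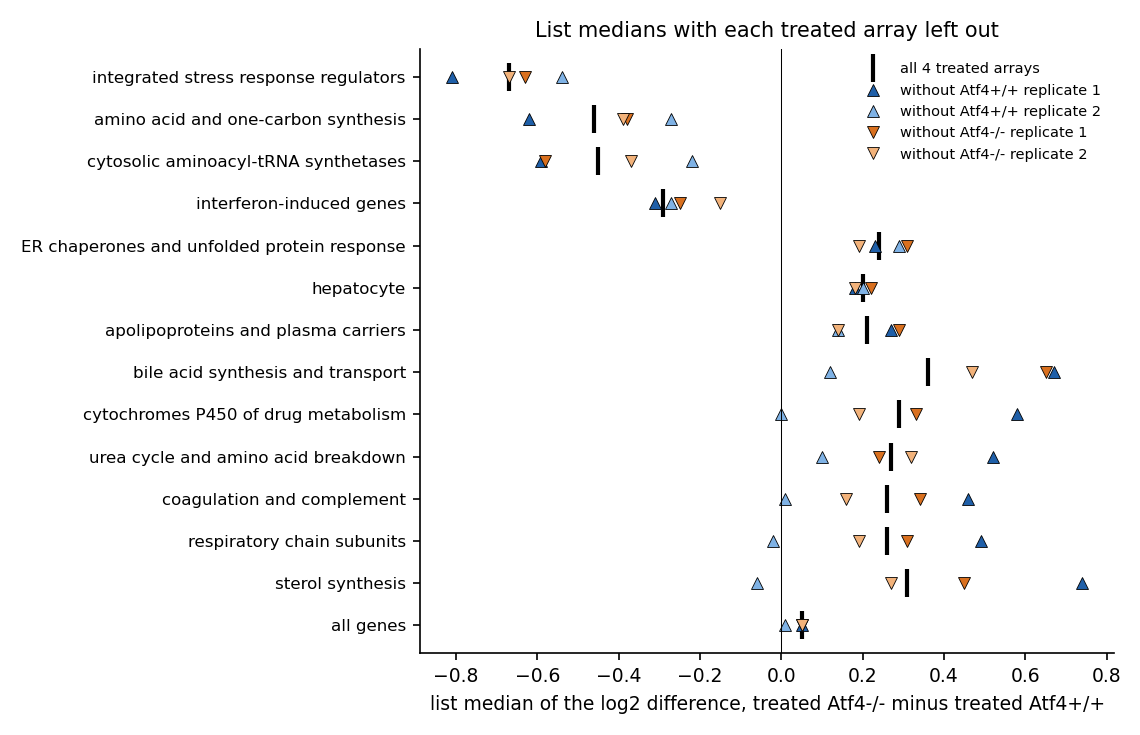
Median log2 difference between treated Atf4-/- and treated Atf4+/+ livers over the genes of each list (horizontal axis), with all 4 treated arrays (black bar) and with each array left out (triangles). The medians of stress regulators, enzymes of amino acid synthesis and synthetases stay below 0 in each case, from -0.81 to -0.22, whereas sterol synthesis runs from 0.74 to -0.06 and respiratory chain subunits from 0.49 to -0.02.

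Single genes of other pathways stood apart between the genotypes. Pck1, the entry enzyme of gluconeogenesis, had 0.73 and 0.57 in treated Atf4+/+ and 1.27 and 1.20 in treated Atf4-/- livers (0.84 ± 0.25, SE, limma unadjusted p = 0.0232). Socs3, a feedback inhibitor of cytokine signalling, had 0.67 and 0.31 against 5.12 and 1.17 (2.20 ± 0.79), and the difference was 1.18 without Atf4-/- replicate 1. Its other probe set gave 0.89 ± 0.39. Socs2, the feedback inhibitor of growth hormone signalling, stood the other way with 1.68 and 2.53 against 0.67 and 1.24 (-1.09 ± 0.40, and -0.69 without Atf4-/- replicate 1), and Igfbp2 had 0.61 and 0.51 against 1.03 and 0.97 (0.74 ± 0.23). Of the growth hormone and IGF axis 3 of 13 genes (23.1%, against 2.4%) had a higher value at an unadjusted p under 0.05, Egfr being the third (0.88 ± 0.28). The other Egfr probe sets gave 0.62 ± 0.34 and 0.21 ± 0.65, and the latter overlapped between the genotypes. Keap1, which holds the antioxidant factor NRF2 in check, had 1.04 and 0.96 against 0.55 and 0.49 (-0.83). The list of 20 measured antioxidant genes holds Keap1 itself and Nfe2l2, the gene of NRF2, beside genes driven by NRF2. In that list 2 (10%, against 2.73% of all genes), Keap1 among them, had a lower value at that p. A higher value at that p was seen for 1 (5%, against 2.4%), and the list's median was -0.04 (0.11 without Atf4-/- replicate 1). In the acute phase list 1 of 23 genes (4.35%, against 2.73%), the iron-binding Lcn2, had a lower value at that p. Its ratios were 1.68 and 2.46 against 1.05 and 1.02 (-0.91 ± 0.28), but its other probe set gave 0.02 ± 0.28. Transcription factors of the hepatocyte, C/EBP proteins among them, gave 6 of 16 (37.5%, against 15.8%) below and 2 (12.5%, against 19.5%) above, with none at that p and a median of -0.20, which was -0.07 without Atf4+/+ replicate 2 and -0.05 without Atf4-/- replicate 1. Circadian genes gave 6 of 16 (37.5%, against 15.8%) below and none above, with a median of -0.14 (-0.41 without Atf4-/- replicate 2). Among them the clock output gene Dbp had 1.42 and 3.87 against 0.72 and 1.28 (-0.51 without Atf4+/+ replicate 2) and ranged from 0.27 to 5.37 on the untreated arrays, and the sources used here do not give the hour at which livers were taken.

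**Figure D4:**
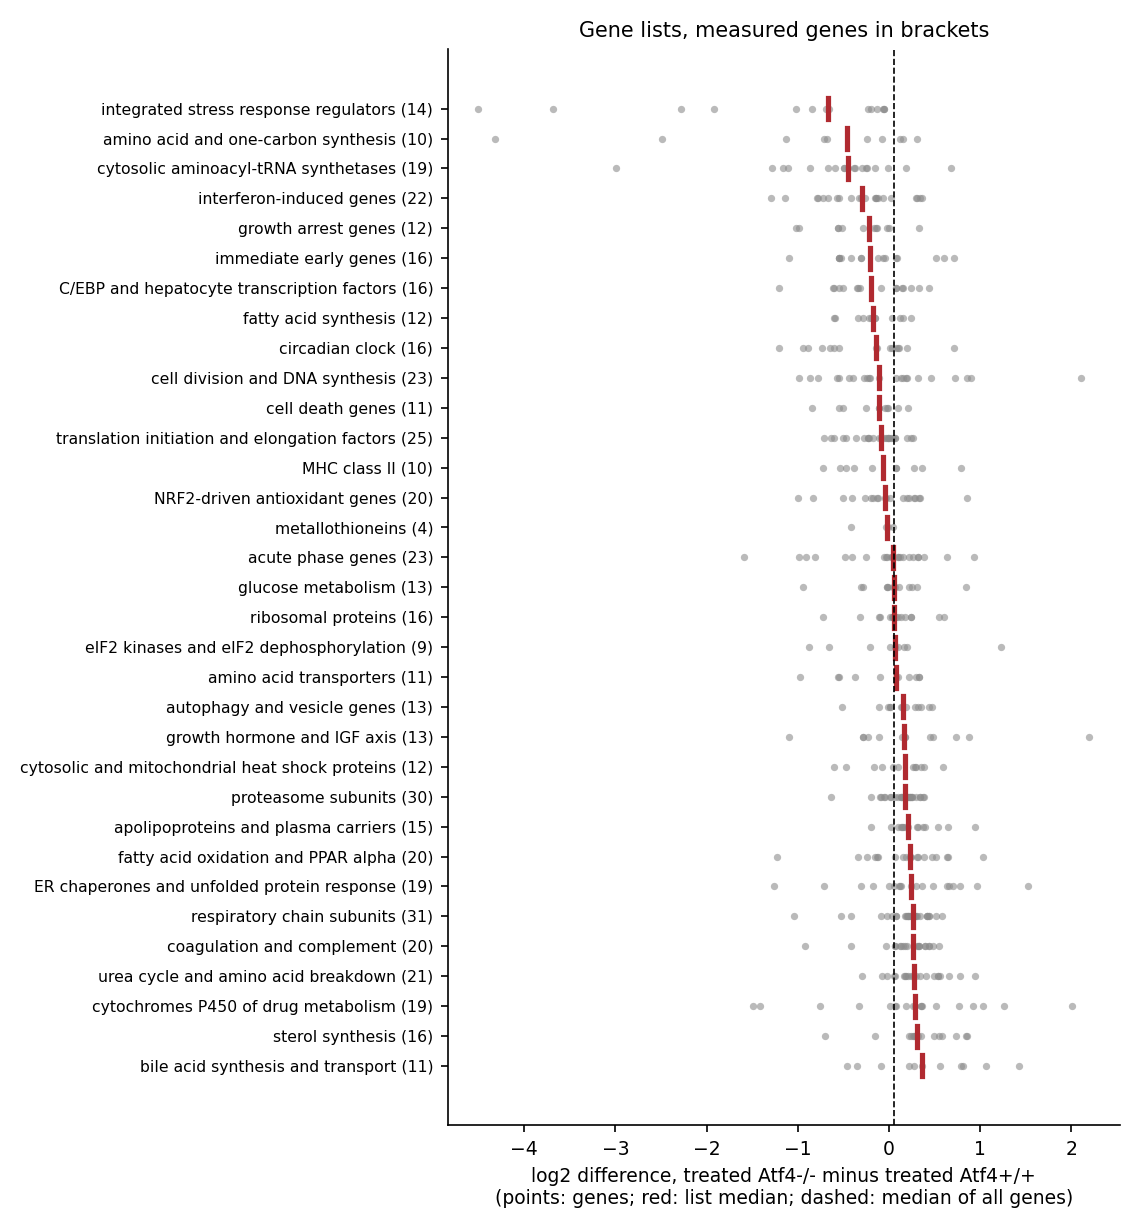
Log2 difference between treated Atf4-/- and treated Atf4+/+ livers for every measured gene of each list (grey points), with the list's median in red and the median of all 8251 genes, 0.05, as a dashed line. Among the pathway lists plotted the lowest medians belong to stress regulators (-0.67), enzymes of amino acid synthesis (-0.46) and synthetases (-0.45), and the highest to bile acid genes (0.36).

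The rule for single genes named 12 in each direction by the smallest p among those that did not overlap and differed by at least 1. Besides Cars, Atf4, Psat1 and Mthfd2, the lower ones were Ifi202b, Gata1, Isg20, Dpt, Cip2a, Slc2a1, Klk1 and Myoz1. Ifi202b, an interferon-inducible gene of the AIM2-like family, had 2.53 and 3.07 in treated Atf4+/+ against 0.57 and 0.52 in treated Atf4-/- livers (-2.16 ± 0.24, SE, limma unadjusted p = 0.000562), and Isg20, an interferon-induced exonuclease, had 2.87 and 2.73 against 0.64 and 0.47 (-2.16 ± 0.26). For both the Atf4+/+ livers stood above every untreated array. Slc2a1, the glucose carrier GLUT1, had 1.25 and 1.27 against 0.24 and 0.13, and here it was the Atf4-/- livers that stood below the untreated range of 0.32 to 1.42 (-2.28 ± 0.29). Cip2a, an inhibitor of the phosphatase PP2A, had 1.32 and 1.01 against 0.22 and 0.19 (-2.04 ± 0.26). The probe sets of Ifi202b and Cip2a had medians of 0.555 and 0.42 over all arrays, below that of most probe sets. The same limit was given above for the other Mthfd2 probe set, but Ifi202b and Cip2a had only 1 probe set each.

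Some of the 12 name genes of other tissues. Gata1, the erythroid transcription factor, had 3.57 and 3.61 against 0.87 and 0.82 (-1.97 ± 0.22), while its other probe set gave 0.16. Of 7 measured erythroid markers 1 (14.3%, against 15.8% of all genes) had both Atf4-/- arrays below both Atf4+/+ arrays, and the median was 0.16. The mean log2 value of these markers was 0.27 and -0.26 on the Atf4+/+ and 0.30 and -0.04 on the Atf4-/- arrays. Haemoglobin varied within the genotypes, with Hba-a1 at 2.14 and 0.30 in the Atf4+/+ and 1.26 and 0.74 in the Atf4-/- livers. Myoz1, a muscle sarcomere gene, had 2.79 and 3.31 against 0.86 and 0.85 (-1.72 ± 0.23), and 10 muscle markers had a median of -0.08. Klk1, a tissue kallikrein, had 3.55 and 3.82 against 1.04 and 0.84 (-1.87 ± 0.24), with 0.06 from its other probe set. Dpt, a dermal matrix protein made by fibroblasts, had 1.57 and 1.56 against 0.30 and 0.38 (-1.93 ± 0.24), with 0.35 and 0.44 on the untreated arrays labelled Atf4+/+ and 2.0 and 2.67 on those labelled Atf4-/-.

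The 12 higher genes were Hesx1, Mrvi1, Crk, Kif11, Celsr1, Sema3f, Mip, Spa17, Acrbp, Il10ra, Nid2 and Tal2. Crk, an adaptor protein of receptor signalling, had 0.10 and 0.13 in treated Atf4+/+ and 1.24 and 0.97 in treated Atf4-/- livers, and the untreated arrays lay between 0.89 and 1.37 (2.48 ± 0.26, SE, limma unadjusted p = 0.000401). Kif11, a mitotic kinesin, followed the same pattern with 0.18 and 0.20 against 1.32 and 1.0, and 0.90 to 1.35 untreated (2.11 ± 0.26). Tal2, a helix-loop-helix factor, had 0.25 and 0.28 against 1.32 and 0.92, and 0.90 to 1.33 untreated (1.72 ± 0.28). In these 3 genes the treated Atf4-/- livers were near the untreated ones and the treated Atf4+/+ livers stood below.

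Celsr1, a cadherin of planar cell polarity, had the largest positive difference, with 0.12 and 0.12 against 1.15 and 2.15 (2.93 ± 0.36, SE, limma unadjusted p = 0.000855), and 0.25 to 1.76 untreated. Celsr1 begins at 85898758 on chromosome 15, within 10 Mb of Atf4. The part of DNA flanking the deleted locus in its difference was not tested. Mrvi1, a partner of the inositol trisphosphate receptor, had 0.31 and 0.32 against 1.74 and 1.80 (2.17 ± 0.22, SE, limma unadjusted p = 0.000383). Its untreated ratios ran the opposite way, 1.57 and 1.87 where labelled Atf4+/+ and 0.43 and 0.37 where labelled Atf4-/-. Hesx1, a homeobox gene, had 0.30 and 0.28 against 1.99 and 1.70 (2.31 ± 0.23, SE, limma unadjusted p = 0.000368), with 2.69, 0.23, 0.27 and 2.40 on the untreated arrays in the order of the labels. Its promoter was the 1 of 8 available among the higher genes that held the C/EBP-ATF element. The remaining 6 (Sema3f, Mip, Spa17, Acrbp, Il10ra and Nid2) had differences of 1.68 to 1.96, and Acrbp had other probe sets at 0.07 and -0.47. The probe sets of Mip, Spa17 and Nid2, 1 for each gene, had medians over all arrays of 0.955, 0.845 and 0.43, below that of most probe sets.

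**Figure D5:**
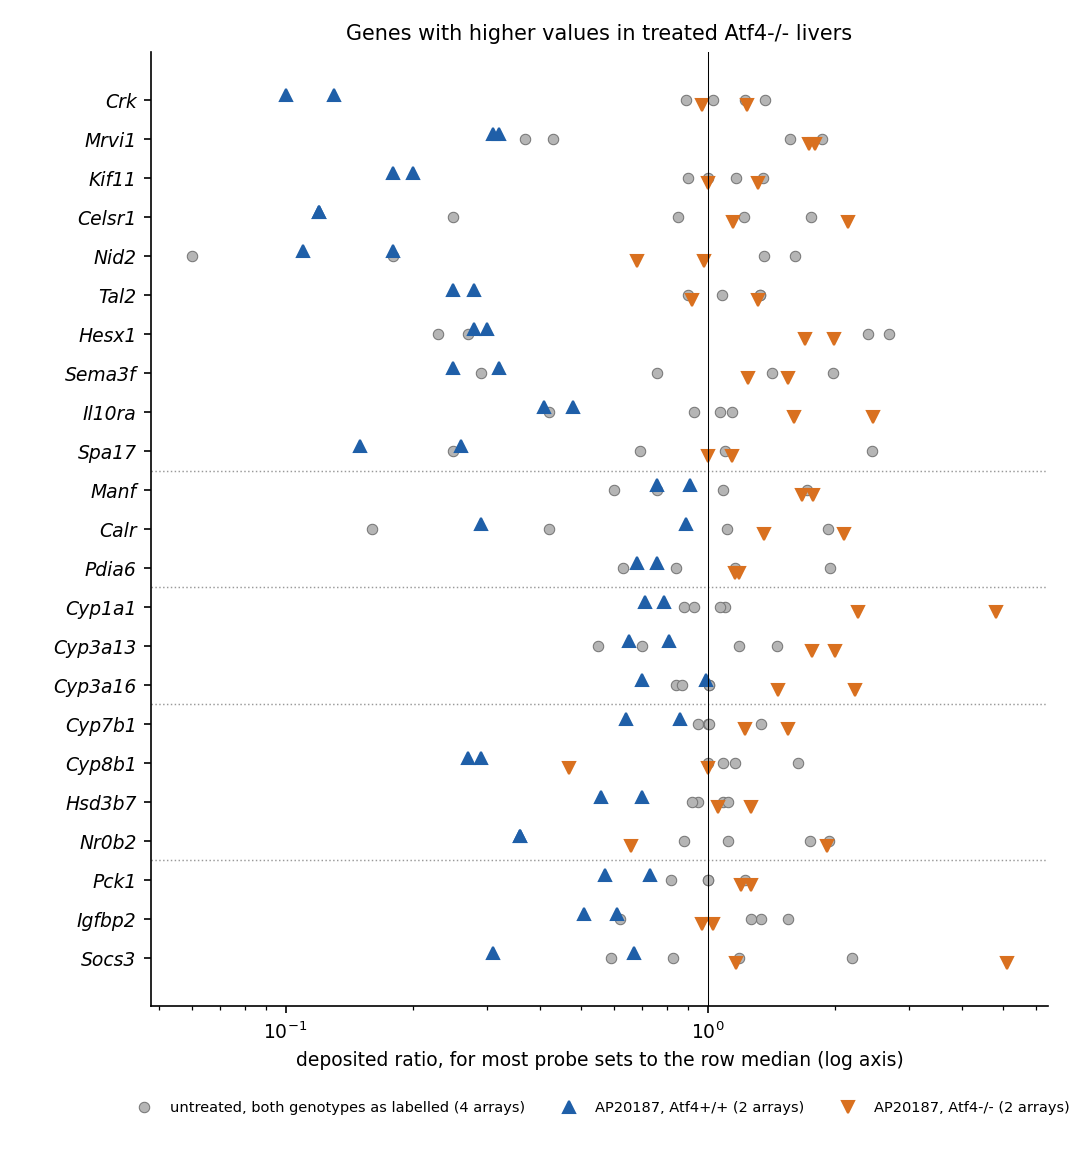
Deposited ratio (log axis) of genes with higher values in treated Atf4-/- livers on each array, with untreated arrays in grey, treated Atf4+/+ in blue and treated Atf4-/- in orange. Crk, Kif11 and Tal2 stand at 0.10 to 0.28 in the treated Atf4+/+ livers and at 0.92 to 1.32 in the treated Atf4-/- livers, beside untreated ratios of 0.89 to 1.37.

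Over all genes the same reading against the 4 untreated arrays was made. Of the 202 genes lower by at least 1 without overlap, 85 (42.1%, against 10.9% of all genes) had both treated Atf4+/+ arrays above every untreated array. In 26 of these 85 both Atf4-/- arrays lay inside the untreated range, and in 18 both were above it, where over all genes it was 180 and 392 of 902. Of the 168 genes higher by at least 1 without overlap, 54 (32.1%, against 12.1% of all genes) had both treated Atf4+/+ arrays below every untreated array, and in 25 of these 54 both Atf4-/- arrays lay inside the untreated range, against 209 of 1002 over all genes. Since the treated Atf4+/+ values chose both sets, these shares describe the sets and test nothing.

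Whether the genotype difference under AP20187 departed from that in untreated liver was tested in limma over all 8 arrays with the genotypes as labelled. Of 12422 probe sets 0 had an adjusted p under 0.05 and 678 (5.46%) an unadjusted one. The smallest adjusted p-values belonged to Mrvi1 (4.03 ± 0.29, SE, adjusted p = 0.0666) and Dpt (-4.22 ± 0.34, adjusted p = 0.0692). For Psat1 the difference was -3.34 (limma unadjusted p = 0.00281), for Nupr1 -6.43 (unadjusted p = 0.00153), for Mthfd2 -2.38 (unadjusted p = 0.00104) and for Atf4 itself -3.43 (unadjusted p = 0.0466). These values rest on the untreated arrays whose genotype is in doubt.

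Markers of other cells were read beside these results. Macrophage markers (10 measured) had a median of 0.06 and endothelial markers (10) -0.08, with mean log2 values of 0.06 and 0.18 against 0.26 and 0.22 for the former and 0.28 and -0.09 against -0.02 and 0.18 for the latter. Stellate cell and fibroblast markers (10) had a median of -0.05, and 2 (20%, against 2.73%), Dpt among them, had a lower value at an unadjusted p under 0.05. Both Atf4-/- arrays lay below both Atf4+/+ arrays for 2 of the 10 (20%, against 15.8%) and above for 1 (10%, against 19.5%). Cholangiocyte markers (5) had the lowest median of the cell types, -0.45, which was 0.07 without Atf4+/+ replicate 1. Of these markers 1 (20%, against 15.8%) had both Atf4-/- arrays below and 1 (20%, against 19.5%) above, shares near those of all genes. Adipocyte markers (5) had a median of 0.26 and 2 (40%, against 19.5%) with both Atf4-/- arrays above, of which Fabp4, a fatty acid carrier of fat cells and macrophages, had 0.61 and 0.51 against 1.0 and 1.0 (0.74 ± 0.23, limma unadjusted p = 0.0293). Among neutrophil markers S100a9 stood higher in Atf4-/- livers, with 0.64 and 0.40 against 2.31 and 0.94 (1.38 ± 0.50, and 0.77 without Atf4-/- replicate 1), and the median of 11 was 0.11. S100a9 alone of these (9.09%, against 2.4%) had a higher value at an unadjusted p under 0.05. Both Atf4-/- arrays lay above both Atf4+/+ arrays for 3 (27.3%, against 19.5%) and below for 2 (18.2%, against 15.8%). Among pancreas markers Clps, the colipase gene of acinar cells, had 0.72 and 0.46 against 1.68 and 1.54 (1.33 ± 0.29, SE, limma unadjusted p = 0.00821), while 3 of 7 (42.9%, against 19.5%) had both Atf4-/- arrays above and the list's mean log2 value was -0.07 and -0.09 against 0.36 and -0.03. In a table of ratios a marker at 1 may still be near the detection limit, so that absence of these cells cannot be read from it.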

How the data were processed

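Total RNA of whole liver was hybridised as biotinylated cRNA to Affymetrix MG-U74Av2 arrays, 1 per sample, per the labels' protocols. The values are the authors' deposited table, 12488 probe sets by 8 arrays, in steps of 0.01. As deposited by the authors, the values are linear ratios, scaled before deposit so that the median over the 8 arrays reaches 0.99 or more for 85.8% of probe sets and less for 14.2%, as read from the values. The sources used here do not give how the authors summarised and scaled the intensities, or which signals were above background. The number of arrays limits the precision.

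After 66 control probe sets were left out, limma 3.58.1 (lmFit and eBayes, R 4.3.3, with statmod 1.5.0) was fitted to log2(ratio + 0.1) of the 4 treated arrays over 12422 probe sets, with Benjamini-Hochberg adjustment at 0.05. The treated arrays alone were used because the Atf4 level of 2 untreated arrays stood against their labels. The fit was tested on 10 simulated data sets in which 200 probe sets were changed. It called 0% of those changed by a log2 difference of 1, 0.8% at 2, 33.8% at 3 and 59.8% at 4, so that large differences can also fail the adjusted test. Probe sets were named from the platform annotation: 10833 named 1 gene, 396 several and 1193 none. Each of 8251 genes was read from 1 probe set, preferring a median of at least 0.99, a plain probe set and the smallest spread within groups. Fold changes on this scale understate those of low ratios.

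Named were Atf4 and Eif2ak3, the 12 genes in each direction with the smallest p among those with separate groups and a log2 difference of at least 1 (none passed the adjusted test), the stress response list, and up to 4 genes of each other list by p. Further genes given as contrast, for their known role in a list, were chosen after their values were seen. Clone names and probe sets of several genes were left out. The members and lists were chosen with earlier results of these data known. Promoter sequences came from RefSeq (GRCm38.p6) and were matched by gene symbol. Alternatives covered the arrays in the fit, the pseudocount, the scaling, filters on low values, robust and unmoderated fits, array weights, the mean of all probe sets and leaving out each treated array. Tables and figures were made with Python 3.11.15, pandas 2.3.3 and matplotlib 3.10.9. Chac1, Sesn2, Fgf21 and Gdf15, further genes of the stress response, were not analysed here.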

Additional observations from a re-analysis of the deposited data

How the results depend on the processing

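Under every alternative run, and at an adjusted p under 0.1, 0 probe sets passed the limma test in either direction. The 379 lower and 339 higher probe sets at an unadjusted p under 0.05 became 304 to 689 and 247 to 720 when each treated array was left out. The highest counts came without treated Atf4+/+ replicate 1, and the lone array of that group was then assumed to vary like the others. The other alternatives stayed within 1.5 times those counts. Of 1455 values of 96 genes under alternatives, 1441 kept their sign and 14, in 8 genes, did not. Many of these genes were named for a small p or for groups without overlap. Without overlap, leaving out a treated array cannot turn the sign, so that this share does not measure how stable the values are. With single arrays left out, the difference ran from -0.43 to 0.01 for Eif2ak3 (above 0 without Atf4+/+ replicate 2), from -0.35 to 0.24 for Atf5 (0.13 and 0.24 without Atf4+/+ replicate 1 and Atf4-/- replicate 2), from -0.59 to 0.49 for Cebpb and from -0.81 to 0.36 for Ndrg1 (both above 0 without Atf4+/+ replicate 2). It ran from -1.17 to 0.78 for Ddit4 (above 0 without Atf4+/+ replicate 1), from -0.33 to 0.20 for Vldlr (0.20 and 0.11 without Atf4+/+ replicate 1 and Atf4-/- replicate 1), and from -0.33 to 0.06 for Stc2 (0.00 and 0.06 without Atf4+/+ replicate 1 and Atf4-/- replicate 2). Quantile normalization gave Atf5 0.08, Cebpb 0.14 and Ddit4 0.04, and the mean of all probe sets gave Apom -0.07. The cause was not tested. Of 736 list medians under alternatives, 58 moved. No paired analysis was possible because the labels give no replicate numbers. With 2 arrays a group, unstated scaling and no detection calls, small differences and low genes could not be resolved. Large differences could fail the adjusted test as well, as that of Atf4 itself did at -3.69 (limma adjusted p = 0.477).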

Other observations

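Genes near the deleted locus were counted apart, since a knockout allele is carried with flanking DNA of its strain of origin. Within 10 Mb on each side of Atf4 on chromosome 15, 134 genes were measured. Both treated Atf4-/- arrays lay below both treated Atf4+/+ arrays for 34 of them (25.4%) and above for 26 (19.4%), against 15.8% and 19.5% of all genes, and 8 (5.97%, against 5.13%) had an unadjusted limma p under 0.05. Their median difference was -0.01. Celsr1, the gene with the largest positive difference of all, lies in this region.

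On the untreated arrays, given in the order Atf4+/+ replicates 1 and 2 and Atf4-/- replicates 1 and 2 as labelled, Hesx1 stood at 2.69, 0.23, 0.27 and 2.40, Cars at 3.0, 0.52, 0.60 and 1.40, and Atf4 at 2.36, 0.30, 0.29 and 1.67. The first and the last array were the high ones in each case. Nid2, a basement membrane protein, stood at 1.61, 1.36, 0.06 and 0.18, and Mrvi1 at 1.57, 1.87, 0.43 and 0.37. These followed the labelled genotype, and in the treated livers both genes were ordered the other way.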
